A study of Mus musculus with 10 samples.

Results

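RGS proteins are regulators of G protein signaling. They share a domain that speeds the hydrolysis of GTP on activated Gα subunits, which ends the signal of a G protein–coupled receptor. Arteries use this brake because their main constrictor receptors, including the α1-adrenergic and angiotensin II receptors, act through G proteins such as Gq and G11. Described here are 10 of the 55426 genes in the RNA-Seq table, namely *Rgs2*, *Rgs3*, *Rgs4*, *Rgs5*, *Rgs10*, *Rgs11*, *Rgs12*, *Rgs14*, *Rgs16*, and *Rgs19*, which were taken by their gene names. *Rgs2*, *Rgs3*, *Rgs4*, *Rgs5*, and *Rgs16* encode members of the R4 subfamily, most of which are small proteins with little beside the RGS domain. *Rgs10*, *Rgs12*, and *Rgs14* belong to the R12 subfamily, *Rgs11* to the R7 subfamily, which pairs with the Gβ5 subunit, and *Rgs19* to the RZ subfamily.

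RNA was sequenced from whole thoracic aortas, with 3 libraries from control mice (genotype Prdm16 f/f) and 3 from Prdm16SMKO mice (Prdm16 f/f with the SMMHC-CreERT2 transgene), each called an aorta here. Both groups carried the floxed *Prdm16* alleles, and the knockout mice also carried a tamoxifen-inducible Cre recombinase driven by the smooth muscle myosin heavy chain promoter, from a transgene on the Y chromosome, so these mice were male. By the study's methods, mice were kept on a C57BL/6J background, and the deletion was induced at 8 weeks of age by 5 days of tamoxifen with 2 weeks of washout. Whether the controls received tamoxifen, the age at RNA collection, and the time of day at which the aortas were taken are not given in the sources used here. In a second experiment, Flag-tagged PRDM16, a zinc finger transcription factor, or the empty vector was carried by lentivirus into primary mouse vascular fibroblasts of wild-type genotype, the cells were infected for 48 hours and kept in puromycin (2 μg/mL) for 1 week, and anti-Flag ChIP-Seq was made with 1 library for each. The peaks therefore come from over-expressed protein in connective tissue cells, not from vascular smooth muscle cells (VSMCs), and have no replicate.

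RNA levels are given in TPM, a length-corrected transcript abundance scaled to the same total in every library, so levels can be compared between genes. Fold changes are differences between Prdm16SMKO and control in log2(TPM + 0.1), tested by limma in the 15668 genes whose TPM averaged 0.5 or more, and a gene was called at a Benjamini-Hochberg adjusted *P* below 0.05. *Prdm16*, the targeted gene, measured 56.1, 47.6, and 40.3 TPM in the control aortas and 23.3, 33.3, and 23.4 TPM in the Prdm16SMKO aortas. Every Prdm16SMKO aorta was below every control (log2 fold change, −0.85, SE 0.18; limma adjusted *P* = 0.0725), and the transcript was still measured in all 3. Reads from exons outside the floxed part count in this TPM, and whole aortas also hold cells other than VSMCs. In whole tissue, fewer cells of a type and less RNA per cell cannot be told apart. The deposited TPM of all genes tested had a median log2 fold change of −0.12, and each library gave 20.2% to 28.2% of its TPM to 1 transcript, CT010467.1, and 14.7% to 26.5% to mitochondrial genes. After median ratio rescaling, which sets the libraries to a common middle, that median was 0.00121, so member values are also given relative to the other genes where it matters. *Prdm16* had a log2 fold change of −0.73 after this rescaling (limma adjusted *P* = 0.0232). It passed in 4 of the 16 settings of the fit (0.0232 to 0.230).

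The RGS genes covered a wide range of levels in the control aortas. *Rgs5*, widely used as a marker of pericytes and arterial smooth muscle, stood at 341 ± 39.9 TPM (mean ± SD, *n* = 3) and was higher than 98.4% of the genes tested. *Rgs4* followed at 68.7 ± 3.30 TPM, *Rgs3* at 50.6 ± 5.63 TPM, and *Rgs2* at 11.7 ± 3.09 TPM, and the ranges of these 4 genes did not overlap. *Rgs10* (7.70 ± 1.12 TPM) and *Rgs19* (7.54 ± 1.20 TPM) overlapped each other, as did *Rgs11* (3.59 ± 0.754 TPM) and *Rgs12* (3.43 ± 0.354 TPM). *Rgs16* (0.27 to 0.49 TPM) and *Rgs14* (0.17 to 0.23 TPM) were the lowest. In the Prdm16SMKO aortas the order of the 8 highest was the same, with *Rgs19* and *Rgs11* now also overlapping, and *Rgs14* and *Rgs16* changed places within overlapping ranges.

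**Figure D1:**
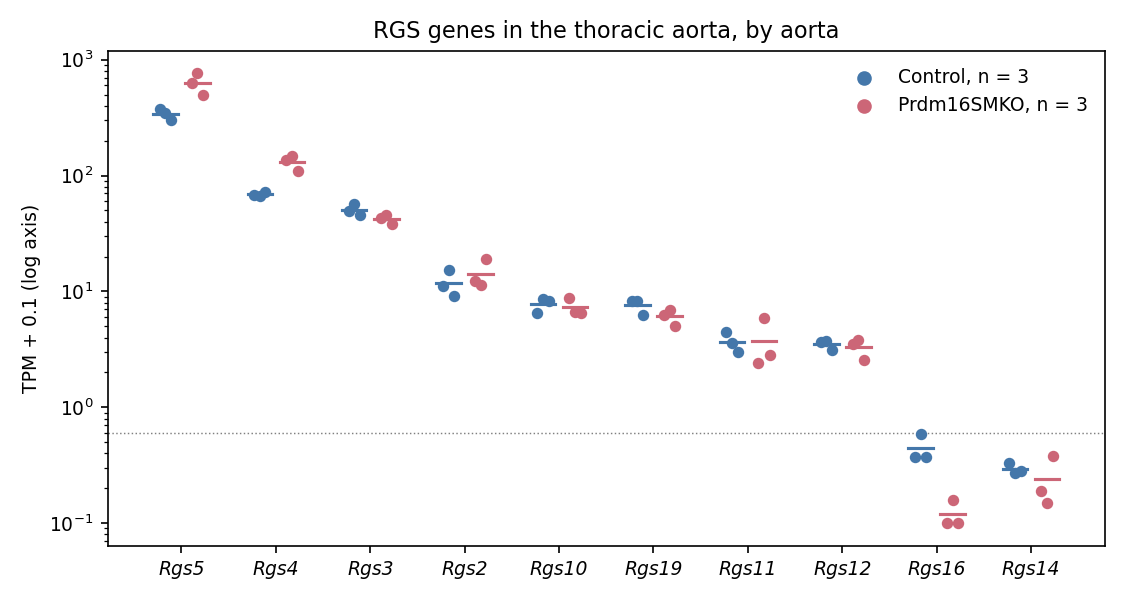
TPM + 0.1 of the 10 RGS genes on a log axis in each of 3 control (blue) and 3 Prdm16SMKO (red) aortas, with bars at the group means and a dotted line at the filter of 0.5 TPM. *Rgs5* (299 to 377 TPM in control, 494 to 763 TPM in Prdm16SMKO) and *Rgs4* (66.0 to 72.3 TPM and 109 to 147 TPM) lie higher in every Prdm16SMKO aorta, and *Rgs16* and *Rgs14* lie under the filter.

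*Rgs4* was the member that passed the test. Its product acts on Gi and Gq subunits and is short-lived, being degraded through the N-end rule pathway. *Rgs4* measured 67.7, 66.0, and 72.3 TPM in the control aortas and 136, 147, and 109 TPM in the Prdm16SMKO aortas. The groups did not overlap, and the 3 controls lay close together. The mean rose 1.89-fold on the log2(TPM + 0.1) scale (log2 fold change, 0.91, SE 0.13; 95% interval, 0.62 to 1.21; limma adjusted *P* = 0.0149). The call was lost without control 1 (limma adjusted *P* = 0.0616), control 2 (0.0647), control 3 (0.0546), or Prdm16SMKO 1 (0.0687), with the log2 fold change at 0.82 to 1.04 over the 6 aortas left out in turn, and in a fit without the mean-variance trend (0.105).

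*Rgs5* had the highest level and a change of nearly the same size. Its product is a short R4 protein of mural cells that acts on Gq and Gi subunits. *Rgs5* measured 377, 348, and 299 TPM in the control aortas and 630, 763, and 494 TPM in the Prdm16SMKO aortas. Here too every Prdm16SMKO aorta was above every control, but the 3 Prdm16SMKO aortas were more spread out (629 ± 135 TPM). *Rgs5* did not pass the threshold (log2 fold change, 0.87, SE 0.17; 95% interval, 0.49 to 1.24; limma adjusted *P* = 0.0516). It did so at a mean TPM filter of 1 (0.0407), after median ratio rescaling (0.00637), after quantile normalization (0.00795), and without Prdm16SMKO 3 (0.0198), the one with the lowest *Rgs5* level of its group. It passed in 6 of 16 settings in all. *Rgs5* did not pass without a filter (0.131), without the mean-variance trend (0.214), or with any other aorta left out (0.101 to 0.171).

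Among the 10 members, 8 passed the TPM filter, of which 1 was called higher and 0 lower. Of all genes tested, 1.07% were called, 0.389% higher and 0.683% lower. At an unadjusted *P* below 0.05, 2 of the 8 were higher (*Rgs4* and *Rgs5*) and 0 were lower, while 3.22% of all genes tested were higher and 9.45% lower. The groups did not overlap for 3 of the 8 tested members, *Rgs4* and *Rgs5* (higher) and *Rgs3* (lower), while 19% of all genes tested did not overlap, 4.08% higher and 14.9% lower. *Rgs16*, under the filter, was also lower without overlap. The median log2 fold change of the 8 members was −0.10, near that of all genes tested (−0.12).

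**Figure D2:**
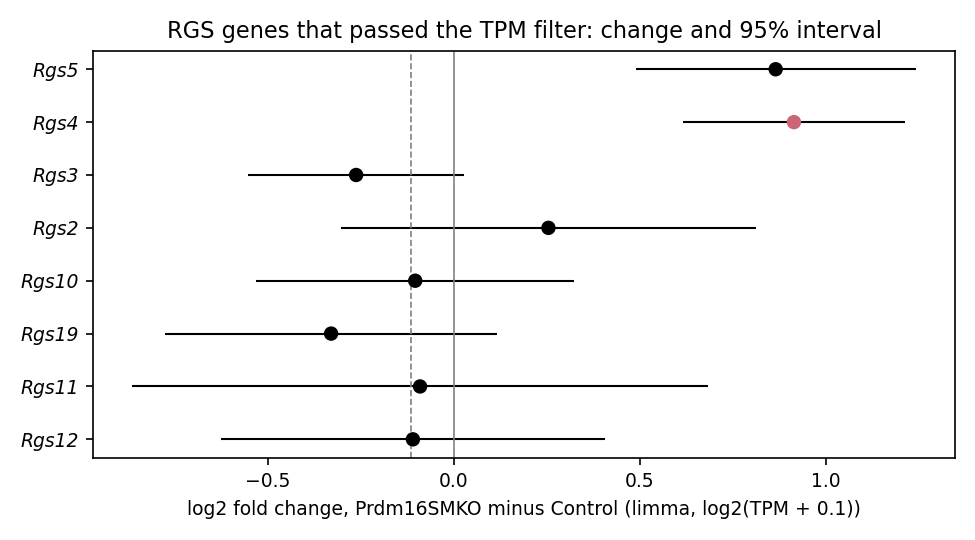
log2 fold change (Prdm16SMKO minus control) of the 8 RGS genes that passed the TPM filter, in order of control level from top to bottom, with 95% intervals from limma. *Rgs4* (red; 0.91) passed the test, *Rgs5* (0.87) lies beside it, and the other 6 intervals include 0; the dashed line is the median of all genes tested (−0.12), and *Rgs10*, *Rgs11*, and *Rgs12* move from just below 0 to just above it after median ratio rescaling.

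The remaining R4 genes did not pass the test. *Rgs3*, which encodes both short and long proteins from several start sites, measured 49.0, 56.9, and 46.0 TPM in the control aortas and 42.7, 45.1, and 38.4 TPM in the Prdm16SMKO aortas. The groups did not overlap, with Prdm16SMKO 2 just under control 3 (log2 fold change, −0.26, SE 0.13; limma adjusted *P* = 0.443). After median ratio rescaling the groups overlapped and the log2 fold change was −0.15. *Rgs2* encodes a Gq-selective regulator that is a target of cGMP-dependent protein kinase in VSMCs, and mice without it are hypertensive. It measured 11.0, 15.1, and 9.06 TPM in the control aortas and 12.1, 11.2, and 18.9 TPM in the Prdm16SMKO aortas. The groups overlapped, with 1 high aorta in each (log2 fold change, 0.25, SE 0.25; 95% interval, −0.31 to 0.81; limma adjusted *P* = 0.706).

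*Rgs16*, whose expression follows a daily rhythm in several tissues, was near the floor of the table. It measured 0.27, 0.49, and 0.27 TPM in the control aortas and 0, 0.06, and 0 TPM in the Prdm16SMKO aortas. Each Prdm16SMKO aorta was below each control, but the mean over the 6 aortas (0.182 TPM) was under the filter and no fold is given against a group with 2 aortas listed at 0. Without a filter, limma over 26228 genes gave *Rgs16* an adjusted *P* of 0.162. Genes of the circadian clock moved in the same libraries: of 16 clock genes tested, 3 were called higher (*Cry1*, *Ciart*, and *Bhlhe40*) and 1 lower (*Npas2*), and their part in the values of *Rgs16* or of any other member was not tested.

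The genes of the other subfamilies did not pass it either, and the groups overlapped for each of them. *Rgs19*, which encodes the Gα-interacting protein GAIP, measured 8.24, 8.22, and 6.15 TPM in the control aortas and 6.22, 6.83, and 4.88 TPM in the Prdm16SMKO aortas (log2 fold change, −0.33, SE 0.20; 95% interval, −0.78 to 0.12; limma adjusted *P* = 0.523). *Rgs10*, whose small product is abundant in immune cells, measured 6.43, 8.55, and 8.11 TPM in control and 8.63, 6.53, and 6.35 TPM in Prdm16SMKO. In both groups 1 aorta lay apart from the other 2, in opposite directions. *Rgs12* encodes a large scaffold with several protein-binding domains and measured 3.59, 3.67, and 3.02 TPM in control and 3.45, 3.71, and 2.45 TPM in Prdm16SMKO. *Rgs11* measured 4.38, 3.50, and 2.88 TPM in control and 2.31, 5.77, and 2.71 TPM in Prdm16SMKO, with the highest and the lowest of the 6 both in Prdm16SMKO aortas. In GENCODE vM21 the annotated span of *Arhgdig* on the opposite strand, chr17:26199183-26207786, covers 4836 bp of *Rgs11*, and antisense genes lie within or across *Rgs3*, *Rgs12*, and *Rgs16*. On the same strand, *Gm15503* overlaps *Rgs10* by 3374 bp and *Mir3097* overlaps *Rgs12* by 67 bp. Whether counting used strand is not given in the sources used here, and strand would not separate overlaps on the same strand. The reads of these members are therefore uncertain. The log2 fold changes of *Rgs10* (−0.10), *Rgs11* (−0.09), and *Rgs12* (−0.11) had 95% intervals of −0.53 to 0.32, −0.86 to 0.68, and −0.63 to 0.41, and were 0.012, 0.023, and 0.0039 after median ratio rescaling (limma adjusted *P*, 0.863, 0.946, and 0.882 as deposited). *Rgs14*, known from hippocampal neurons, was under the filter, at 0.23, 0.17, and 0.18 TPM in control and 0.09, 0.05, and 0.28 TPM in Prdm16SMKO, and the groups overlapped.

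Ratios of 2 genes within an aorta do not depend on how the library is scaled. *Rgs5* was 7.71, 6.12, and 6.49 times the TPM of *Rgs3* in the control aortas and 14.8, 16.9, and 12.9 times in the Prdm16SMKO aortas. The groups did not overlap (6.78 ± 0.830 against 14.8 ± 2.03, *n* = 3 each; 2-sided exact permutation test, *P* = 0.1, the smallest that 3 against 3 allows). *Rgs4* was 1.38, 1.16, and 1.57 times the TPM of *Rgs3* in control and 3.18, 3.25, and 2.84 times in Prdm16SMKO (1.37 ± 0.207 against 3.09 ± 0.222; exact permutation test, *P* = 0.1). The ratio of *Rgs5* to *Rgs4*, in contrast, overlapped between the groups, at 5.58, 5.28, and 4.13 in control and 4.64, 5.20, and 4.53 in Prdm16SMKO (4.99 ± 0.765 against 4.79 ± 0.358; exact permutation test, *P* = 0.8). These 3 ratios share genes and are not independent, and the genes were chosen with their values known. *Rgs5* and *Rgs4* were higher and *Rgs3* lower in every Prdm16SMKO aorta, so both ratios to *Rgs3* were bound not to overlap. Their exact permutation *P* of 0.1 was thus fixed in advance and adds no support to the values of the single genes. The summed TPM of the 10 genes was 528, 511, and 447 in control and 841, 989, and 677 in Prdm16SMKO, of which *Rgs5* made up 66.9% to 71.5% and 73.0% to 77.2%. *Rgs3* made up 9.27% to 11.1% in control and 4.56% to 5.68% in Prdm16SMKO.

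**Figure D3:**
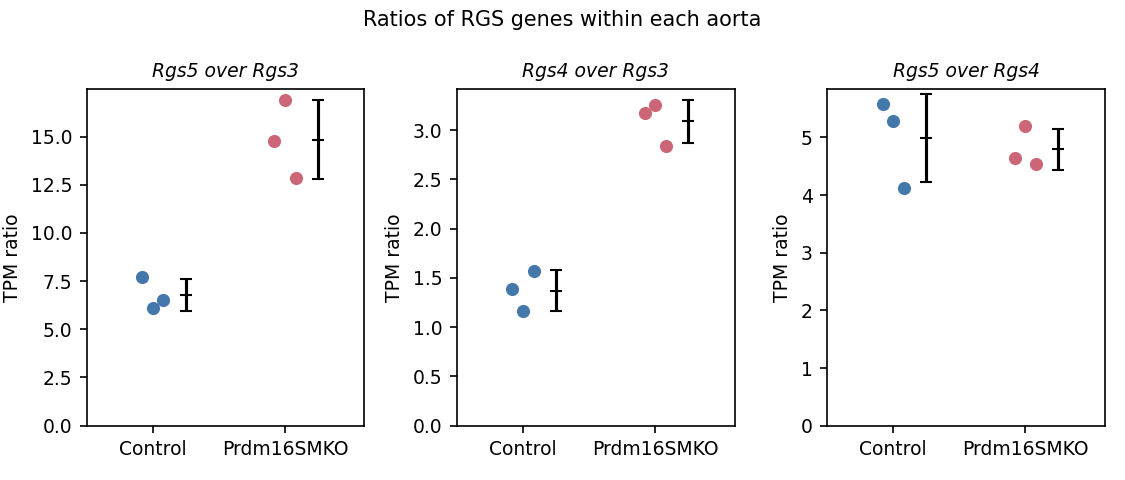
TPM ratios within each aorta for *Rgs5* over *Rgs3*, *Rgs4* over *Rgs3*, and *Rgs5* over *Rgs4* in 3 control (blue) and 3 Prdm16SMKO (red) aortas, with the mean and SD beside the points. The first ratio has a mean of 6.78 in control and 14.8 in Prdm16SMKO and the second 1.37 and 3.09, without overlap, whereas the third has 4.99 and 4.79 with overlap.

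*Rgs4* and *Rgs5* are neighbors on mouse chromosome 1 (GRCm38). *Rgs5* runs on the plus strand at chr1:169655501-169695813 and *Rgs4* on the minus strand at chr1:169741477-169747642, so they are transcribed toward each other, with 45663 bp between the genes and 92141 bp between their transcription start sites (TSSs). Within 200 kb on either side of the pair the annotation lists 9 genes, and the other 7 reached at most 0.87 TPM (*Nuf2*) in any aorta and were not tested. Over the 6 aortas the log2(TPM + 0.1) of *Rgs4* and *Rgs5* had a Pearson *r* of 0.952, a description over points that also carry the difference between the groups. Of 13685 genes compared in the same way, those most like *Rgs4* were *Slc8a3* (*r* = 0.997), which encodes a sodium-calcium exchanger, *Ppp1r14c* (0.994), an inhibitor of protein phosphatase 1, and *Reep1* (0.994), an endoplasmic reticulum-shaping protein. Those most like *Rgs5* were *Tmod1* (0.991), which caps actin filaments, *Pdlim3* (0.990), a protein of the α-actinin scaffold, and *Klhl7* (0.989), a ubiquitin ligase adaptor. The 250 bases before each TSS are shown because the values of the 2 genes ran side by side, from RefSeq on GRCm38.p6, 5′ to 3′ in the direction of transcription, with capitals for the motif matches described after them.
Rgs4 promoter, chr1:169747643-169747892, minus strand: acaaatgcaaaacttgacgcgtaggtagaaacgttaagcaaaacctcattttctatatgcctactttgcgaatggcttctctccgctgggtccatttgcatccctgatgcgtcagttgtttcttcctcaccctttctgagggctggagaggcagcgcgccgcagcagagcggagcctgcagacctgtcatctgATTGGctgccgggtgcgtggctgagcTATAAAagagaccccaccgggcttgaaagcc
Rgs5 promoter, chr1:169655251-169655500, plus strand: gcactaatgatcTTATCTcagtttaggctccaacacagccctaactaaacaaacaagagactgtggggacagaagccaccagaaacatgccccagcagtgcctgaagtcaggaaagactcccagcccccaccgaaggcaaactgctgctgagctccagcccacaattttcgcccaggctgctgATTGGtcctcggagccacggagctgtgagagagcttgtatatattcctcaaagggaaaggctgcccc
Both had a G+C content of 53.6%, close to the median of 52.4% over 32851 promoters of the same length, but *Rgs4* held 13 CpG dinucleotides and *Rgs5* held 4 (median of all, 6).

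Motifs were searched on both strands in these promoters and in those of the other members with a RefSeq entry (8 of 10 members matched, not *Rgs11* or *Rgs14*). The hexamer AGATAA, the core of erythroid and cardiac zinc finger factor sites, was in a promoter of *Rgs5* (in capitals as TTATCT, starting 238 bases before the TSS) and of *Rgs3*, and in 9.99% of all promoters. GGGGCGGGG, a GC box, was in those of *Rgs12*, *Rgs16*, and *Rgs19* and in 10.4% of all. The E-box CACGTG, to which clock factors bind, and the cAMP response element TGACGTCA were in none of these members' windows and in 6.02% and 1.55% of all promoters. After the sequences had been read, TATAAA, the TATA box core, and ATTGG, the reverse complement of the CCAAT box, were added. *Rgs4* had both, ATTGG starting 57 bases and TATAAA 31 bases before the TSS, and 4.4% of all promoters had both. *Rgs5* had ATTGG starting 67 bases before the TSS, a match shared with *Rgs2* and *Rgs16* and with 33.8% of all promoters, and no exact TATAAA (12.4% of all). Other runs of A and T, such as the tatatatt near the end of the *Rgs5* stretch, were not searched. The lack of a TATAAA match therefore does not show that *Rgs5* has no TATA box. A match is a run of letters and not a measured site.

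In fibroblasts, none of the 11271 Flag-PRDM16 peaks was near *Rgs4* or *Rgs5*. No peak lay between the start of *Rgs5* and the end of *Rgs4*, and the nearest, chr1:170108223-170108584 (fold enrichment, 4.34), was 361 kb from *Rgs4* and 413 kb from *Rgs5*. *Rgs2* was also without a peak, the nearest being 57.9 kb beyond its end. Taking a peak as a promoter peak when its center was at most 2 kb from a curated TSS, 2 of the 10 members had a promoter peak, *Rgs10* and *Rgs11*, neither of which passed the expression test. Among the 12563 genes tested for expression with a curated TSS, 43.8% had such a peak. A peak in the gene or within 10 kb was present for 4 members, *Rgs3*, *Rgs10*, *Rgs11*, and *Rgs19*, and for 51.1% of 15652 genes. The vector library, with 67 peaks, had 0 peaks within 50 kb of any member. Gene length and the number of start sites were not matched in these shares. The shares are of genes tested for expression, whereas the 10 members include *Rgs14* and *Rgs16*, which were not tested. The members with these peaks were all among the 8 tested.

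The *Rgs10* peak, chr7:128417585-128418657, was 1073 bp long and covered the TSS, its center 51 bp downstream of it. Its fold enrichment of 5.10 lay at percentile 48.3 of all PRDM16 peaks. The *Rgs11* peak, chr17:26201147-26201490, was more enriched (7.03, percentile 82.4), but its center was at −1623 bp relative to the *Rgs11* TSS and 32 bp from the TSS of *Arhgdig*, a gene on the other strand. The *Rgs3* peak, chr4:62696968-62697407, was in an intron, 23213 bp downstream of the nearest TSS (4.57, percentile 28.6). The *Rgs19* peak, chr2:181680557-181681088, lay 7.60 kb beyond the gene's end and 525 bp from the TSS of *Tcea2* (4.65, percentile 35.9). Within 50 kb, *Rgs10* had a second peak at 42.2 kb, 549 bp from the TSS of *Tial1*. *Rgs12* had one at 17.4 kb, 15 bp from the TSS of *Dok7*, and *Rgs14* one at 39.7 kb, 342 bp from that of *Mxd3*. *Rgs16* had peaks at 41.7 kb and 49.4 kb, the farther one in an exon of *Rgs8*. A stretch of each promoter peak outside annotated exons is shown, from the plus strand for *Rgs11* and the minus strand for *Rgs10*. These peaks had the centers closest to the TSS of a member. The *Rgs11* stretch does not include the summit of its peak, at position 26201349.
Rgs11 peak, chr17:26201370-26201490, GRCm38.p6: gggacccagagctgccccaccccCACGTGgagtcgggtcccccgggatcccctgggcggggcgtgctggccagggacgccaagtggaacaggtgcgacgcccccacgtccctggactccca
Rgs10 peak, chr7:128418218-128418517, GRCm38.p6: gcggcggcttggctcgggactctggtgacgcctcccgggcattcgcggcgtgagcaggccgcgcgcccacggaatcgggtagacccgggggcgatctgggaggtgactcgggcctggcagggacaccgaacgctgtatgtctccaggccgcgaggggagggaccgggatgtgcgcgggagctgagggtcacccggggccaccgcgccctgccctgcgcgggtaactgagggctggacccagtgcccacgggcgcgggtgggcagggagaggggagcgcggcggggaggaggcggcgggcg
The *Rgs11* stretch held 1 CACGTG (in capitals). The *Rgs10* stretch held none of the 4 motifs, with a G+C content of 75.7% and 37 CpG dinucleotides. High G+C was general at promoters with PRDM16 peaks, whose median was 63.6% with 18 CpG over 6834 promoters, against 50% with 4 CpG over the 26017 without one. *Rgs2*, without a peak, had 72.4% and 30 CpG in its 250 bases.

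**Figure D4:**
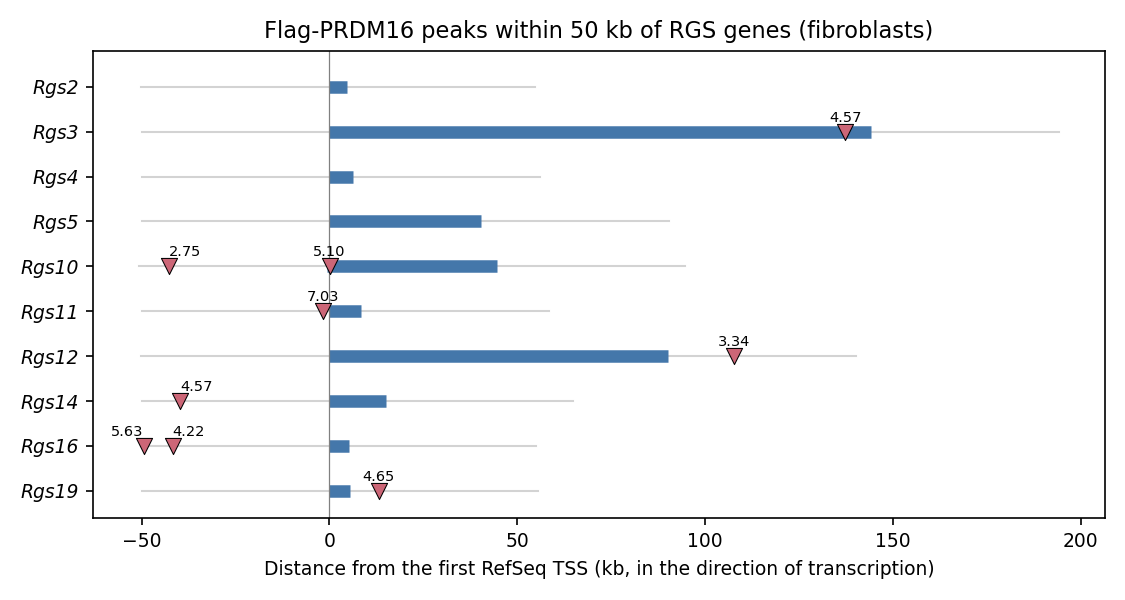
Centers of Flag-PRDM16 peaks (red triangles, labeled with the fold enrichment) within 50 kb of each RGS gene (blue bars) in fibroblasts, by distance from the first RefSeq TSS in kb in the direction of transcription, with the searched range in gray. The peaks of *Rgs10* (5.10) and *Rgs11* (7.03) sit at or just before the start, and *Rgs2*, *Rgs4*, and *Rgs5* have none.

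The wider pathway was described by lists of G protein signaling genes, of which 75 of 77 listed symbols were in the table and 56 passed the filter. In the fit over all genes 0 were called, with 4 higher and 10 lower at an unadjusted *P* below 0.05 (7.14% and 17.9% of the 56, against 3.22% and 9.45% of all genes tested). Other settings called up to 3. The groups did not overlap for 7 genes that were higher and 14 that were lower (12.5% and 25%, against 4.08% and 14.9% of all genes tested), and the median log2 fold change was −0.12, as for all genes tested. The 10 Gα subunits had a median of −0.12, the 11 Gβ and Gγ subunits of −0.20, and the 7 receptor kinases and arrestins, which switch off the receptor itself, of −0.01. The 14 effectors had a median of −0.09, and the 6 other modulators of −0.05. Among these, the 3 genes with the lowest *P* were *Adcy1*, *Rgs6*, and *Grk5*. The study's own list of differentially expressed genes with PRDM16 promoter peaks holds *Rgs7bp* as up and *Grk5*, *Gnb4*, and *Plcb4* as down. The study's adjusted *P* values came from its own analysis, which was not repeated here. In the limma fit on TPM none of these genes was called, and each changed in the direction that the study lists. Their log2 fold changes were 0.25 for *Rgs7bp*, −0.52 for *Grk5*, −0.35 for *Gnb4*, and −0.35 for *Plcb4*.

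*Adcy1*, a calmodulin-stimulated adenylyl cyclase, was low but measured 0.52, 0.40, and 0.44 TPM in the control aortas and 1.76, 2.23, and 1.64 TPM in the Prdm16SMKO aortas. The groups were far apart at a level near the filter (log2 fold change, 1.83, SE 0.37; limma adjusted *P* = 0.0603, or 0.0210 after median ratio rescaling). It passed in 4 of 16 settings (0.0177 to 0.221), and its log2 fold change was 0.98 with a pseudocount of 1. *Rgs6*, an R7 relative of *Rgs11*, measured 2.58, 1.01, and 1.10 TPM in control and 5.82, 6.75, and 3.40 TPM in Prdm16SMKO (log2 fold change, 1.77, SE 0.39; limma adjusted *P* = 0.0845, or 0.0400 after median ratio rescaling). It passed in 5 of 16 settings (0.0400 to 0.227), with log2 fold changes of 1.31 to 2.18. Every Prdm16SMKO aorta was above every control, and control 1 was higher than the other controls. *Grk5*, a receptor kinase, measured 18.5, 15.8, and 19.0 TPM in control and 12.1, 13.9, and 11.1 TPM in Prdm16SMKO, without overlap (log2 fold change, −0.52, SE 0.15; limma adjusted *P* = 0.174). Of the 14 other RGS genes on the list 5 passed the filter. Beside *Rgs6* they were *Rgs1* (log2 fold change, 1.43), *Rgs7* (−0.25), *Rgs7bp* (0.25), and *Rgs17* (0.99), with limma adjusted *P* values of 0.403 to 0.573. *Rgs1* measured 0.24, 0.27, and 0.18 TPM in control and 0.22, 0.93, and 1.97 TPM in Prdm16SMKO, with overlap. The control means of *Rgs1* (0.23 TPM) and *Adcy1* (0.453 TPM) were under the filter, so both were tested only because of their Prdm16SMKO levels. *Rgs7* and *Rgs7bp* had PRDM16 promoter peaks with fold enrichments of 6.30 and 6.01.

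**Figure D5:**
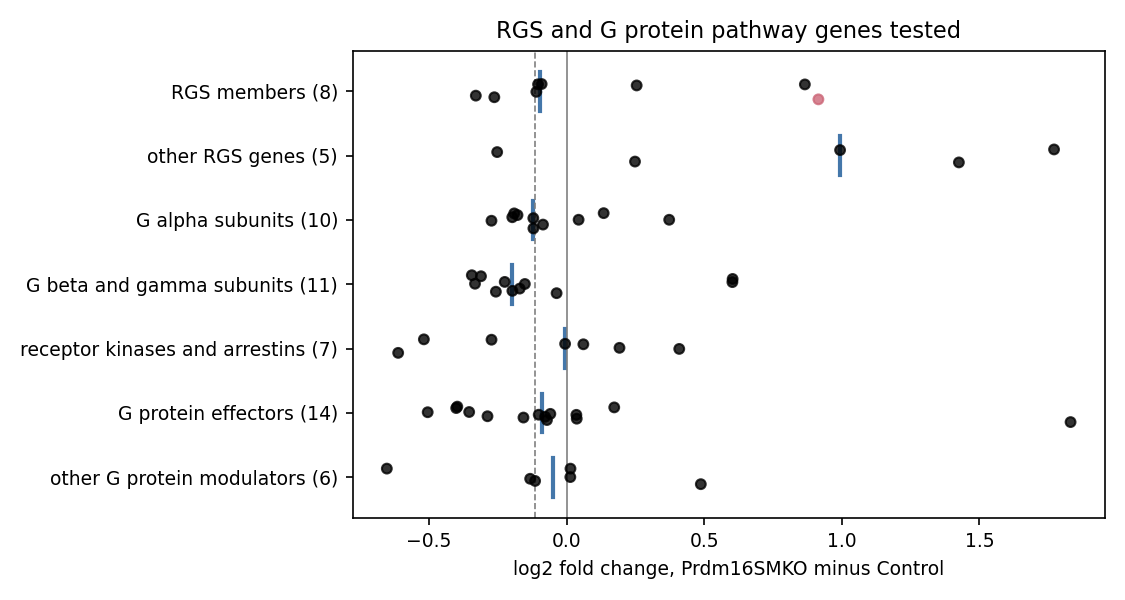
log2 fold change (Prdm16SMKO minus control) of the RGS genes and of other G protein pathway genes that passed the TPM filter, 1 point per gene and the number of genes in parentheses, with blue bars at each list's median and a dashed line at the median of all genes tested (−0.12). *Rgs4* (red) is the point called, *Adcy1* (1.83) and *Rgs6* (1.77) lie farthest to the right, and the medians of the other lists but that of the 5 other RGS genes (0.99) lie between −0.20 and −0.01. *Rgs1*, among those 5, and *Adcy1* had control means under the filter.

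The make-up of the aortas was read from marker genes beside these results. The summed TPM of 8 smooth muscle markers was 21236 to 24765 in control and 14224 to 18418 in Prdm16SMKO, without overlap. None of the 8 was called, 4 were lower without overlap, none was at 0, and their median log2 fold change was −0.32. Between the groups, *Rgs4* and *Rgs5* were thus higher where the summed marker RNA was lower. *Acta2* was the largest part of that sum (mean 11569 TPM in control, 7512 TPM in Prdm16SMKO). *Myh11*, *Smtn*, *Mylk*, and *Myocd* overlapped, with *Myocd* at a log2 fold change of 0.25. Within the Prdm16SMKO group the levels ran together: aorta 2 had the highest and aorta 3 the lowest *Rgs4*, *Rgs5*, and each of the 8 markers. This order is not particular to these genes, as the genes tested leaned the same way in the deposited TPM. Their median log2 fold change, −0.12 with all aortas, was −0.18 without Prdm16SMKO 2 and −0.065 without Prdm16SMKO 3. The part of library scaling in this order was not tested. Of 7 pericyte markers chosen without *Rgs5*, 0 were called and 0 were without overlap, and their sums overlapped at 409 to 506 TPM in control and 365 to 498 TPM in Prdm16SMKO. Their log2 fold changes ran from −1.09 (*Higd1b*) to 0.30 (*Abcc9*) with a median of −0.16, and *Higd1b* was listed at 0 in 1 Prdm16SMKO aorta. The sums of 7 endothelial markers (121 to 154 TPM against 87.7 to 198 TPM), 7 fibroblast markers (1089 to 1374 against 914 to 1365), and 7 macrophage markers (65.1 to 90.6 against 52.9 to 89.3) overlapped as well. Lists for adipocytes (429 to 1697 against 480 to 1200), erythroid cells (944 to 4620 against 761 to 2625), lymphocytes and platelets, skeletal muscle, and Schwann cells and neurons had overlapping sums and 0 called genes. Immediate-early genes, which mark handling or recent stimulation, summed to 485 to 830 TPM in control and 348 to 581 TPM in Prdm16SMKO, with *Nr4a1* called lower. The part of cell make-up or handling in the RGS values was not tested.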

How the data were processed

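RNA-Seq of 6 thoracic aortas (3 control, 3 Prdm16SMKO) and peak lists of 2 anti-Flag ChIP-Seq libraries were used, and 2 IgG libraries were not used here. The members and gene lists were chosen with earlier results of these data known. Groups came from the sample titles, with the columns named WT taken as control.

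The authors deposited TPM per gene, which sum to 1000000 in each aorta. The submitters' processing notes name cutadapt 2.3, STAR 2.7.8a, RSEM 1.3.3, Bowtie2 2.3.4.1, MACS2, and HOMER 4.11, and the builds GRCm38 and mm10, without roles. TPM are not counts, so the depth behind a value is unknown and no counting interval was computed. The deposited peak lists give each peak's fold enrichment (a ratio over local background), −log10 q, −log10 p, and a score, called by the authors with MACS2 at a q of 0.01 in each library. The control used for peak calling is not given in the sources used here, and the score and −log10 p were not used.

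Here log2(TPM + 0.1) was tested with limma 3.58.1 (lmFit, eBayes with trend, R 4.3.3, no covariates), 2-sided, with Benjamini-Hochberg adjustment across the 15668 genes averaging 0.5 TPM or more. The fit was tested on simulated data. A fold on this scale understates changes of low genes. The labels do not say whether each library came from 1 mouse, so *P* values measure the spread between these libraries. Within-aorta ratios were compared by exact permutation tests. Peaks were placed by their center against curated RefSeq TSSs and GENCODE vM21 genes with Python 3.11.15 and pysam 0.24.0. Sequences came from RefSeq on GRCm38.p6.

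Named were all 10 members, *Prdm16*, the 3 pathway genes with the lowest *P*, as none was called, and the 3 genes most correlated with each of the 2 members of lowest *P*. Genes near *Rgs4* and *Rgs5*, the other RGS genes, markers, and the motifs TATAAA and ATTGG were named after their values or sequences were seen. One pathway list of 3 genes counts in the totals and is not reported here. Alternatives were other pseudocounts, filters, scalings, a fit without trend, a replicate block, each aorta left out, and other peak windows. Rescaling without mitochondrial genes, CT010467.1, and AY036118, and GENCODE start sites were added after the data were seen.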

Additional observations from a re-analysis of the deposited data

How the results depend on the processing

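*Rgs4* kept its direction and a log2 fold change of 0.82 to 1.07 in all 16 settings and passed in 11 (limma adjusted *P*, 0.00431 to 0.105). *Rgs5* ranged from 0.71 to 1.03 and passed in 6 (0.00637 to 0.214). The count of members called, 1 as reported, was 2 at a mean TPM of at least 1, after median ratio rescaling, after quantile normalization, and after rescaling without mitochondrial genes, CT010467.1, and AY036118 (added after the data were seen), 0 without the trend, and 0 to 2 when 1 aorta was left out. The second member was *Rgs5* each time. The pathway count, 0 as reported, was 3 after median ratio rescaling, 3 after quantile normalization, 2 after the added rescaling, 1 without the trend, and 0 to 1 with 1 aorta left out. Over all genes, 168 calls became 411, 392, and 366 after median ratio rescaling, quantile normalization, and the added rescaling, 110 without a filter, 48 without the trend, and 91 to 141 with 1 aorta left out. Of those 411 calls 196 were higher and 215 lower, against 61 and 107 as reported. Tested members without overlap numbered 3, or 2 after median ratio rescaling and 3 to 4 with 1 aorta left out.

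The sign turned for *Rgs10* after median ratio rescaling (0.012) and the added rescaling (0.015), for *Rgs11* in both (0.023 and 0.025), and for *Rgs12* in both (0.0039 and 0.0065). Leaving out 1 aorta also turned *Rgs11* (without control 1, Prdm16SMKO 1, or Prdm16SMKO 3; range over the 6, −0.48 to 0.16) and *Rgs12* (without Prdm16SMKO 3; range, −0.22 to 0.066). The cause was not tested. Leaving out 1 of 3 aortas reduces the samples of that fit.

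The replicate numbers did not pair the aortas: deviations of same-numbered aortas had correlations of −0.0246, −0.0700, and −0.00896. With the replicate block, 2 members were called (*Rgs5*, limma adjusted *P* = 0.0179), 1 pathway gene, and 184 genes in all.

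Promoter peaks fell from 2 members to 1 (*Rgs10*) within 1 kb of a TSS, where 42% of genes had one. From 1 kb upstream to 100 bp downstream they fell to 1 (*Rgs10*), where 14% of genes had one. Members with a peak in or near the gene numbered 7 with 50 kb on either side, where 73.4% of genes had one, and 2 in the gene body alone, where 37.7% did. The 7 include *Rgs14* and *Rgs16*, which were not tested for expression, unlike the genes in these shares. The other peak settings, including a q of at most 0.001 and the summit in place of the center, kept 2 and 4. With 3 aortas per group and unknown depth, a difference such as that of *Rgs2* (95% interval, −0.31 to 0.81) cannot be told from 0 or from an increase close to that of *Rgs4*.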
